A study of Homo sapiens with 72 samples.

Results

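The 87 genes described here are long non-coding RNA (lncRNA) genes. In both treatment arms of MCF10A-M2 cells they were lower after 24 h than at 0 h. In the other 2 lines their change from 0 h to 24 h was near the middle of all genes. The 87 were chosen by their measured values from 13631 lncRNA genes tested in all 3 lines, of 96411 in the table, and so make up 0.638% of the genes tested. For each line and arm, the change from 0 h to 24 h was the difference of the mean log2(TPM + 0.5) of the 3 libraries at each time. TPM is a share of transcripts corrected for length. From each change the median change of all genes tested in that line was taken away, which gives the centred change. A member had a centred change of -0.8 or lower in both arms of M2, with the arms less than 0.6 apart, and of less than 0.4 in size in both arms of M1 and of MDA-MB-231. The list was capped at 100 genes ranked by the weaker of the M2 changes, and 87 genes met it.

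MCF10A-M2 (M2) is the HA-Ras transformed derivative of MCF10A-M1 (M1), a non-malignant line of breast epithelial cells, and MDA-MB-231 is a line from a triple-negative breast cancer. Cells of each line were kept without serum overnight and then given TGF-β at 5 ng/mL or the inhibitor SB431542 (SB) at 10 µM. Libraries of total RNA were made at 0, 2, 8 and 24 h with 3 replicates, called biological by the submitters, which makes 24 groups and 72 libraries. The titles of the first SB samples say 0 h, but their treatment field says 0.5 h; these are called 0 h here, though the cells may already have met the inhibitor. The TGF-β and SB arms share no library. Vehicle-treated cells at 2, 8 or 24 h were not analysed here, so time in culture without serum and the added agent cannot be told apart within an arm.

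TGF-β binds a pair of receptor kinases at the cell surface, and the type I receptor then phosphorylates SMAD proteins that move to the nucleus and act on transcription. SB431542 blocks the kinase of the type I receptor, so the arms switch the same pathway on and hold it off. In epithelial cells of the breast TGF-β is known to slow growth and to drive the epithelial-mesenchymal transition, and oncogenic RAS signalling is known to alter that response. Long non-coding RNAs are transcripts with no protein product; some act on chromatin or on RNA stability, and for most no role is known. The members carry NONCODE identifiers that the files pair with no name, and no reference used here lists them. No role, position or sequence is therefore given, and members are called by rank, apart from those whose identifiers are printed. The table held no protein-coding gene, so the labelled cell types and the HRAS level of M2 could not be checked against markers.

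The libraries of M2 differed from those of the other lines before any member was looked at. Genes that reached 0.5 TPM numbered 8458 to 14299 per library in M2, 14205 to 16748 in M1 and 10144 to 13692 in MDA-MB-231. In M2 their number averaged 9080 ± 921 at 24 h and 13571 ± 910 at 0 h of TGF-β (SD, n = 3 each), and 9310 ± 42.9 at 24 h and 13123 ± 1024 at 0 h of SB. In 6 libraries this number lay more than 1000 genes from both other replicates, at a gap at least 4 times that between those, a criterion set after the values were seen. At the tested times these were the first SB replicate of M2 at 2 h (13996 genes beside 10705 and 10335), the first TGF-β replicate of M2 at 8 h (11751 beside 13638 and 13822) and the third SB replicate of MDA-MB-231 at 8 h (13376 beside 11091 and 11042). The others were the third SB replicate (14299 genes) and the second TGF-β replicate (12533) of M2 at 0 h and the third TGF-β replicate of M2 at 24 h (10138). Leaving out one of these last left 70, 74 and 80 members that met the rule. The median change of all tested genes of M2 from 0 h to 24 h was -0.74 in the TGF-β arm and -0.63 in the SB arm. In M1 these medians were -0.25 and 0.005, and in MDA-MB-231 -0.25 and -0.05. A typical lncRNA gene of M2 was thus at a lower TPM after 24 h of either agent, and the centred change counts only what goes beyond that.

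In M2 the members' summed TPM and the number of detected genes were both lowest at 24 h. In every group of M2 the library with the most detected genes also had the highest sum. The library with the fewest had the lowest sum at 0 h of both arms, 8 h of TGF-β and 2 h of SB. In the other groups it did not. At 8 h of TGF-β the first replicate was lowest in both, with 11751 genes and 1174 TPM. Between 2 h and 8 h of TGF-β the group means did not move together. The mean number of detected genes was 13070 at 8 h and 12939 at 2 h, and the mean sum 1453 TPM at 8 h and 2033 at 2 h. The sum gives most weight to abundant members: that of rank 52 alone averaged 253 TPM at 8 h and 391 at 2 h. The sum was 2084, 1705 and 2367 TPM in the 3 libraries at 0 h of the TGF-β arm, 2216, 1902 and 1982 at 2 h, 1174, 1527 and 1656 at 8 h, and 476, 429.7 and 536 at 24 h. Under SB the sum was 2008, 2346 and 2587 TPM at 0 h, 2212, 1586 and 1283 at 2 h, 1531, 1505 and 1697 at 8 h, and 734, 763 and 650.0 at 24 h. Every 24 h library of either arm had a lower sum than any library of an earlier time, and the first SB replicate at 2 h was again the highest of its group. In M1 the sum averaged 1661 ± 168 TPM at 24 h and 2219 ± 21.6 at 0 h of TGF-β, and 2204 ± 8.59 at 24 h and 2097 ± 80.9 at 0 h of SB (n = 3 each). In MDA-MB-231 it averaged 1401 ± 228 at 24 h and 1787 ± 255 at 0 h of TGF-β, and 1714 ± 173 at 24 h and 1909 ± 119 at 0 h of SB. The part of the detected-gene number in the members' decline was not tested. TPM is a share, so it also falls when other lncRNA genes take more of the library. In such bulk RNA, a changed share, fewer cells that express a gene and less RNA per cell cannot be told apart.

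**Figure D1:**
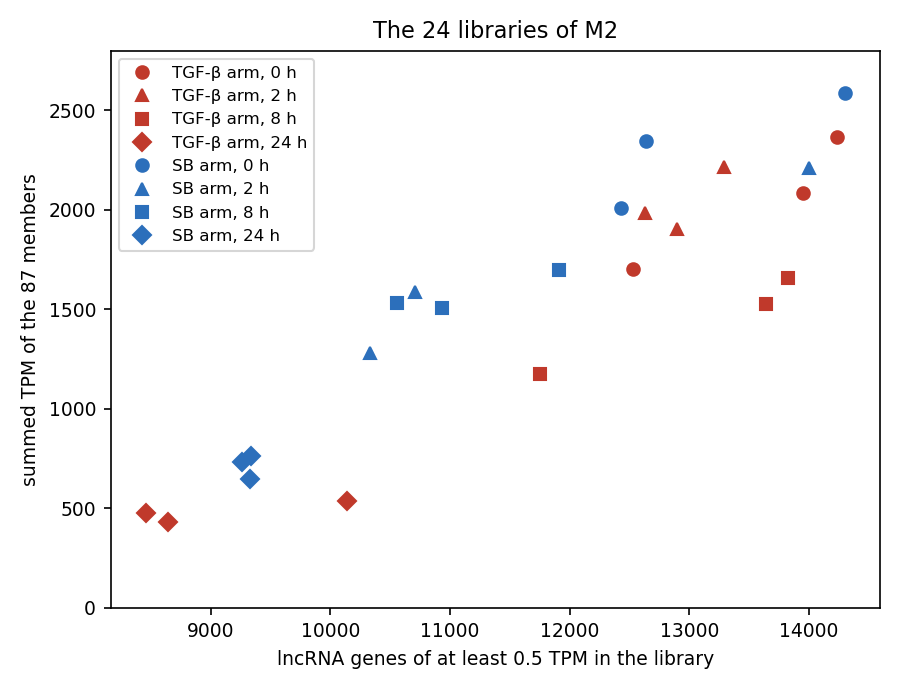
Each point is 1 of the 24 libraries of M2, with the number of lncRNA genes of at least 0.5 TPM on the x axis and the summed TPM of the 87 members on the y axis; colour gives the arm and shape the time. The 6 libraries at 24 h lie lowest on both axes, with sums of 429.7 to 763 TPM, and the first SB replicate at 2 h (13996 genes, 2212 TPM) lies among the 0 h libraries.

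The values that chose the members are given here as a description. The centred change of the 87 members in M2 had a median of -1.26 in the TGF-β arm, with values from -2.55 to -0.81, and of -1.06 in the SB arm, with values from -3.02 to -0.80. Over all 13631 genes the medians were -0.06 and -0.05. Without centring, the members' median change was -2.0 after TGF-β and -1.69 after SB; adding 0.5 TPM before taking the log makes the change of a weakly expressed gene look smaller than it is. As a share of the 0 h mean, a median of 20.04% of a member's TPM was left at 24 h of TGF-β and 24.7% at 24 h of SB. Over 16747 and 16677 genes of M2, not limited to those tested in all 3 lines, these medians were 38.5% and 45.3%.

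**Figure D2:**
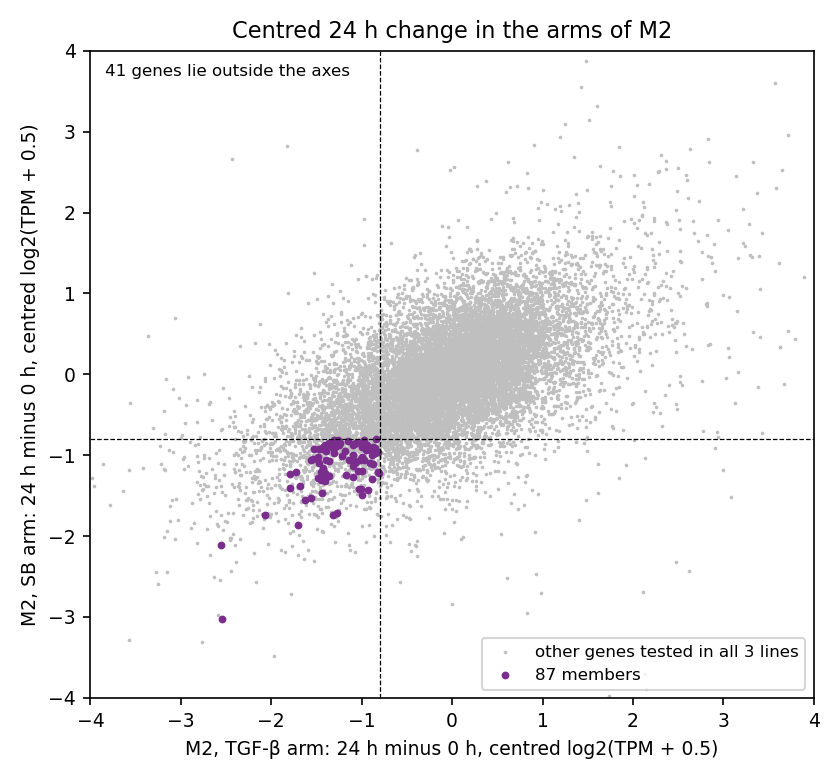
Each point is 1 of the 13631 genes tested in all 3 lines, and any gene beyond the axes is not drawn. The x axis gives the centred log2(TPM + 0.5) change from 0 h to 24 h in the TGF-β arm of M2. The y axis gives that in the SB arm, and the dashed lines mark -0.8. The 87 members, in purple, lie in the corner below both lines and near the diagonal, since the rule asked for both. They are part of the 623 genes that met the M2 thresholds. The grey points beside them are genes that also moved in M1 or MDA-MB-231 or differed between the arms.

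The M2 thresholds alone were met by 623 of the 13631 genes, or 4.57%, and the members are the 87 of these (13.97%) that were also flat in the other lines. Flatness in all 4 arms of M1 and MDA-MB-231 was met by 2715 genes, or 19.9% of those tested. The share of genes that met the M2 thresholds depended on the level at 0 h. It was 0% of 4076 genes under 1 TPM, 4.40% of 3708 genes at 1 to 3 TPM, 11.4% of 2440 genes at 3 to 10 TPM, 6.65% of 1623 genes at 10 to 30 TPM and 4.09% of 1784 genes at 30 TPM or more. These classes held 0, 14, 33, 27 and 13 of the members. On this log scale a gene under 1 TPM has little room for a change of the size the rule asked for.

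All 3 libraries at 24 h lay below all 3 at 0 h for 86 of 87 members in the TGF-β arm of M2, where 50.4% of all tested genes did so, and for 87 in the SB arm, against 48.4% of all genes. In both arms at once this held for 86 members and for 34.2% of all genes. These counts use the libraries that chose the members and are printed as a description only.

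The first and second members by rank are given in every M2 library. NONHSAG058179.1, the first, had 10.7, 8.34 and 10.6 TPM at 0 h of the TGF-β arm of M2, 12.6, 11.1 and 9.79 at 2 h, 4.66, 8.50 and 6.18 at 8 h, and 0.167, 0.096 and 2.46 at 24 h. Under SB it had 10.6, 10.5 and 9.95 TPM at 0 h, 8.96, 9.35 and 4.72 at 2 h, 6.93, 0.997 and 12.8 at 8 h, and 0.307, 0.391 and 0.385 at 24 h. Its 24 h libraries lay below every 0 h library in both arms, while its SB replicates at 8 h spread over 0.997 to 12.8 TPM. In M1 it ranged from 3.27 to 8.21 TPM over 24 libraries with a median of 5.40, and in MDA-MB-231 from 1.65 to 9.50 with a median of 7.21.

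NONHSAG099694.1, the second, had 19.4, 15.9 and 14.1 TPM at 0 h of the TGF-β arm of M2, 4.59, 8.22 and 10.7 at 2 h, 6.02, 14.4 and 9.19 at 8 h, and 1.31, 0.394 and 2.60 at 24 h. Its SB libraries of M2 had 4.10, 7.002 and 11.4 TPM at 0 h, 8.89, 3.52 and 1.503 at 2 h, 1.83, 2.88 and 6.49 at 8 h, and 0.167, 0.244 and 2.24 at 24 h. The arms of M2 did not start alike for this gene: the SB libraries at 0 h lay below every TGF-β library at 0 h. In M1 it ranged from 5.65 to 20.9 TPM with a median of 13.03. Of its 24 libraries in MDA-MB-231, 13 had 0 TPM and the highest 2.07 TPM, so that the rule counted it as flat in that line with almost nothing to measure.

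Members of the next ranks differed widely in level. The member of rank 3 had 4.44, 2.25 and 2.68 TPM at 0 h of the TGF-β arm of M2, 1.11, 1.04 and 2.06 at 2 h, and 0.154, 0 and 0 at 8 h, and was listed at 0 in all 3 libraries at 24 h. With SB it had 1.20, 2.27 and 3.15 TPM at 0 h, 2.90, 1.86 and 0.980 at 2 h and 0.531, 1.39 and 1.16 at 8 h, and was again listed at 0 in all 3 at 24 h. It was above 0 in every library of M1, at 0.576 to 7.07 TPM, and of MDA-MB-231, at 0.117 to 4.08 TPM. The member of rank 7 was far more abundant, with 63.5, 44.1 and 71.0 TPM at 0 h, 82.1, 38.6 and 37.8 at 2 h, 43.0, 40.7 and 40.3 at 8 h, and 9.88, 13.3 and 14.9 at 24 h of TGF-β in M2. Its SB libraries had 98.7, 75.4 and 56.9 TPM at 0 h, 70.4, 35.2 and 54.5 at 2 h, 43.7, 44.9 and 52.2 at 8 h, and 20.1, 22.3 and 11.2 at 24 h. Neither gene had an overlap between 24 h and 0 h in either arm, and that of rank 3 was already lower at 2 h of TGF-β than in every 0 h library. Ranks 3 to 10 had centred changes of -2.07 to -1.41 in the TGF-β arm and of -1.86 to -1.32 in the SB arm.

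The most abundant member at 0 h in M2, of rank 52, averaged 412 TPM over the 6 libraries. In the TGF-β arm of M2 it had 410.3, 290.6 and 459 TPM at 0 h, 391.98, 365 and 415 at 2 h, 222, 257 and 281 at 8 h, and 82.3, 77.4 and 84.2 at 24 h. Its SB libraries had 349, 473 and 489 TPM at 0 h, 449.9, 385 and 282 at 2 h, 384, 371 and 377 at 8 h, and 144, 155 and 141 at 24 h. At 8 h its TGF-β libraries lay below every 0 h library of that arm, whereas its SB libraries at 8 h lay within the range at 0 h. It ranged from 192 to 420.0 TPM in M1 and from 174 to 285 TPM in MDA-MB-231. In M1 its mean was 312 TPM at 0 h and 221 at 24 h of TGF-β, and 288 at 0 h and 348 at 24 h of SB. In MDA-MB-231 it was 230 and 212 TPM with TGF-β, and 260 and 227 with SB.

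**Figure D3:**
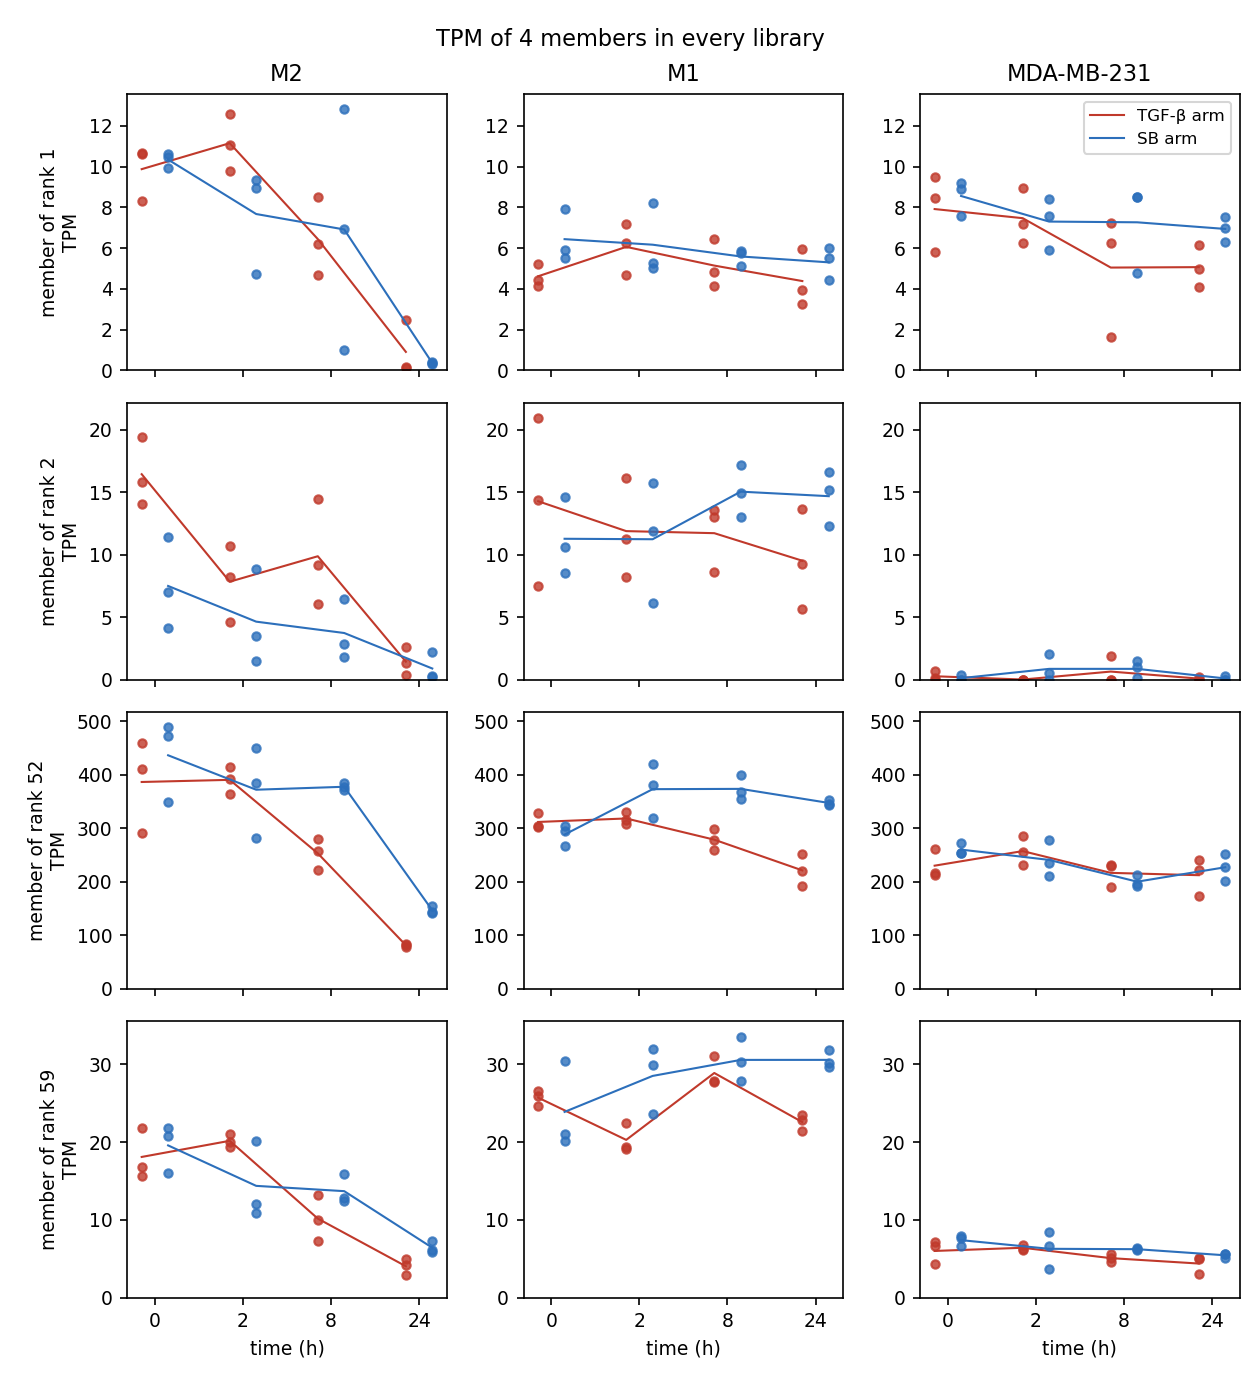
TPM of the members of rank 1, 2, 52 and 59 in every library of M2, M1 and MDA-MB-231, by time in h on an evenly spaced axis; points are single libraries, lines join the means of 3, and the TGF-β arm is red and the SB arm blue. The means of all 4 members are lowest at 24 h in both arms of M2, and the second is close to 0 throughout MDA-MB-231.

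The rule's edge fell in a continuous range. The last members, of ranks 83 to 87, had a weaker M2 change of -0.81, -0.81, -0.81, -0.81 and -0.80. Of the 5 genes that missed one M2 threshold by least, 4 missed the depth of change, with weaker values of -0.7977, -0.7889, -0.7882 and -0.7867, and 1 missed the arm comparison with a difference of -0.6104. Membership also moved with the processing. Under a pseudocount of 1 in place of 0.5, 59 of the 87 still met every threshold, and under a pseudocount of 0.1 or after median-of-ratios scaling 35 did. With a filter of a mean of at least 1 TPM, 30 did, and with single 0 h or 24 h libraries left out in turn, 68 to 83 did. All 4 other settings were met by 17 members and every library left out by 9. Only 3, those of ranks 15, 18 and 38, met all of them.

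At 24 h several members were close to the floor of the table in M2. The mean at 24 h was under 1 TPM for 33 members in the TGF-β arm and for 30 in the SB arm, and under 0.5 TPM for 18 and 16. No member averaged under 1 TPM at 0 h in either arm. In all 3 libraries at 24 h, 1 member was listed at 0 after TGF-β and 2 after SB. TPM keeps no read depth, so how many reads such values rest on is unknown.

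In M1 and MDA-MB-231 the members were flat relative to the middle of all genes, which the rule fixed, but not always in TPM. In M1 the members' median change without centring was -0.41 after TGF-β and 0.06 after SB. A median of 73.9% of the 0 h TPM was left after TGF-β, with values from 52.5% to 109%, and 103% after SB. Over 20358 and 20414 genes of M1 these medians were 76.1% and 99.3%. In MDA-MB-231 73.5% was left after TGF-β and 94.0% after SB, against 76.6% and 95.1% over 16426 and 16474 genes of that line. In the TGF-β arm of M1, 37 of 87 members had every 24 h library below every 0 h library, where 23.5% of all tested genes did. With SB in M1, 8 members lay lower and 8 higher without overlap, against 13.0% and 11.9% of all genes. In MDA-MB-231 14 members lay lower after TGF-β, against 18.7% of all genes, and 14 after SB, against 13.7%. These counts too use the libraries of the rule, and nothing is read from them.

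The order of events was described from the centred change at each time. In the TGF-β arm of M2 the members' median was -0.06 at 2 h, -0.45 at 8 h and -1.26 at 24 h, and in the SB arm -0.23, -0.38 and -1.06. A centred change of -0.8 or lower was reached by 7, 8 and 87 members at 2, 8 and 24 h of TGF-β, and by 3, 14 and 87 at 2, 8 and 24 h of SB. The interval with the largest drop was 8 to 24 h for 65 members in the TGF-β arm and for 60 in the SB arm. It was 2 to 8 h for 13 and 16 members, and 0 to 2 h for 9 and 11. For 48 members the interval from 8 to 24 h was the largest in both arms. The 24 h value is fixed by the rule, and the interval from 8 to 24 h is the longest sampled. In the other lines the rule set no limit at 2 h and 8 h. At 8 h the members' centred change in M1 ran from -0.75 to 0.80 under TGF-β and from -0.89 to 0.91 under SB. In MDA-MB-231 it ran from -1.0 to 0.84 under TGF-β and from -0.79 to 1.28 under SB.

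**Figure D4:**
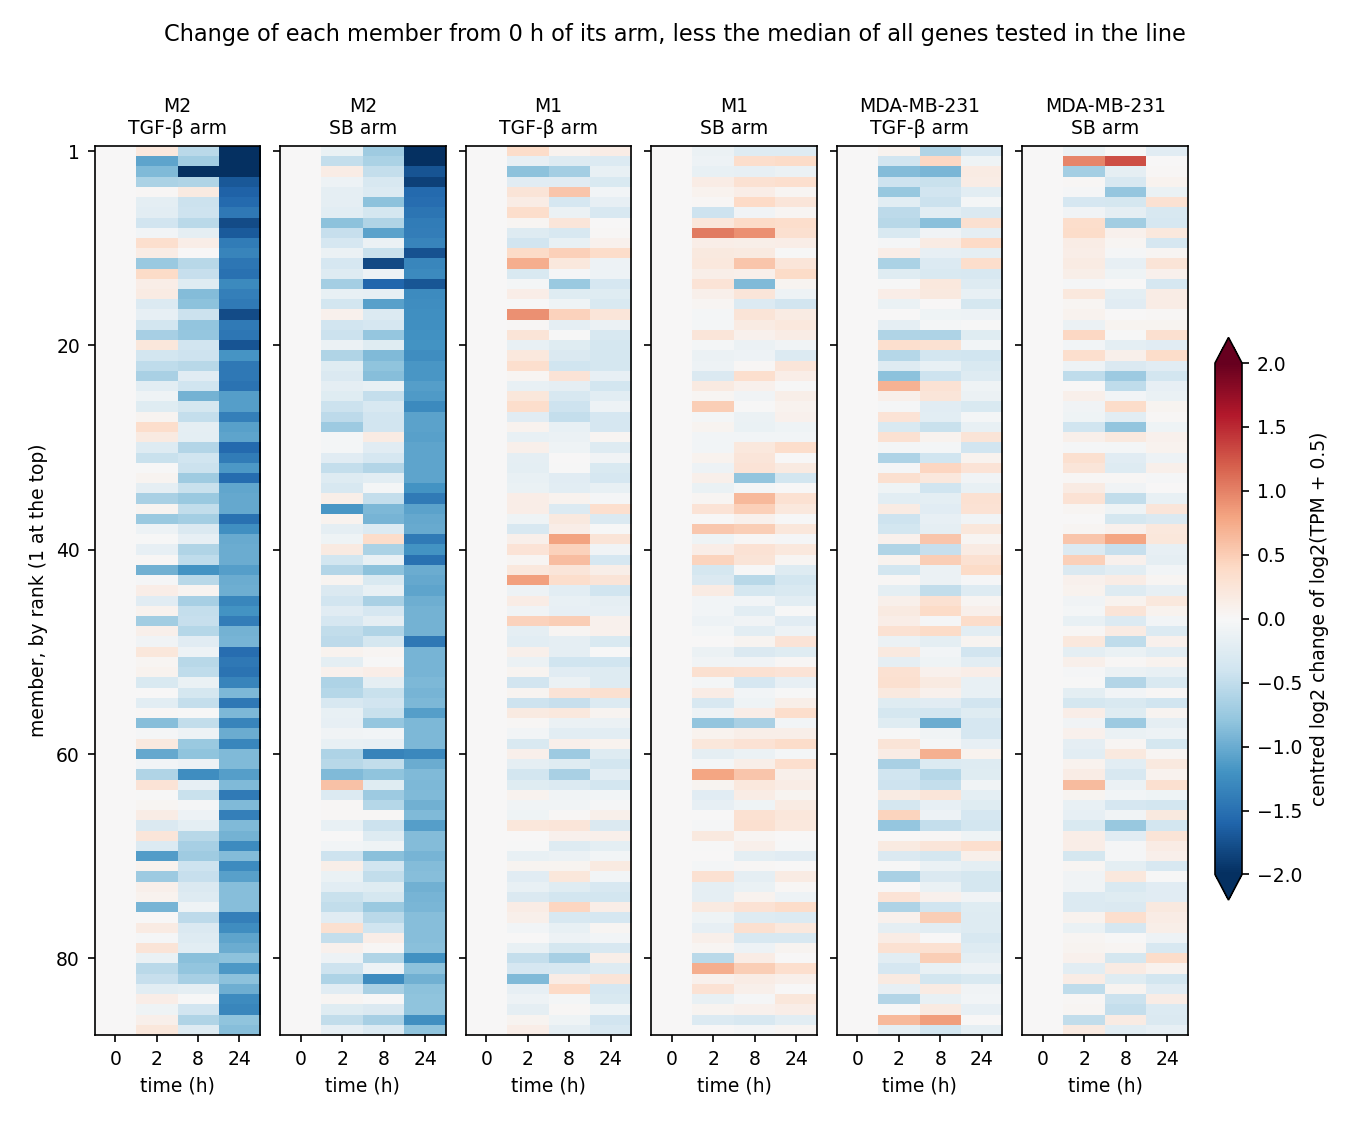
Each line of cells is 1 of the 87 members in rank order, and each column a time in h; colour gives the log2(TPM + 0.5) change from 0 h of the same arm less the median change of all genes tested in the line, with blue for lower values. In both arms of M2 the 24 h column is blue for all members, from light to dark, with medians of -1.26 and -1.06. The 2 h and 8 h columns are mixed and mostly paler, though not for every member.

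The 2 h and 8 h libraries took no part in the thresholds, so 8 h against 2 h was tested with limma on log2(TPM + 0.5), with Benjamini-Hochberg adjustment over all 16958 genes tested in M2 and a threshold of 0.05. In the TGF-β arm 2 of 87 members were called lower at 8 h, where 0.69% of all genes were, and 0 were called higher, where 0.578% were. At an unadjusted p under 0.05, 17 members were lower and 0 higher, where 7.19% and 5.47% of all genes were. The members' median change was -0.31, against -0.02 for all genes, and 72 of 87 had a negative estimate, against 52.1% of all genes. The members' estimates thus lay mostly below those of the typical gene, while few single genes passed the test. In this and every other comparison with all genes, the genes were not matched to the members by level. Of the genes tested in all 3 lines, 29.9% were under 1 TPM at 0 h in M2, and 0 members were. Members also had to be tested in all 3 lines, which all genes of a fit did not. How far the shares differ for these reasons was not tested. Without the first TGF-β replicate at 8 h, the median was -0.14, against 0.10 for all genes, and 1 member was called lower. Rescaling gave more calls in the same direction. After median-of-ratios scaling 9 members were lower, where 1.96% of all genes were, and 0 higher, where 1.97% were. With library medians set equal 12 were lower, where 3.03% of all genes were, and 0 higher, where 1.46% were.

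Under SB in M2 limma called 0 members lower at 8 h than at 2 h, where 0.0059% of all genes were called, and 0 higher, where 0.165% were. At an unadjusted p under 0.05, 5 members were lower and 0 higher, where 3.49% and 5.55% of all genes were. The members' median was -0.12, against -0.01 for all genes, and 59 of 87 had a negative estimate, against 51.0% of all genes. Under the rescalings 0 members were called too, where 0.448% and 0.259% of all genes were lower and 1.87% and 4.26% higher. Without the first SB replicate at 2 h the members' median turned to 0.15, against 0.19 for all genes. The sign of the members' median in this arm thus rested on that library. With or without it the median lay below that of all genes, by less without it. The SB group at 2 h was uneven throughout: its 3 libraries were wider apart than those of any other group of M2 in the members' sum (SD 474 TPM).

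The members that passed in the TGF-β arm were those of ranks 3 and 59. The member of rank 59, NONHSAG094413.1, had 7.29, 9.996 and 13.2 TPM at 8 h, against 20.05, 19.4 and 21.1 at 2 h, without overlap. Its log2 change was -0.99 with a standard error of 0.25 and an adjusted p of 0.0449 by limma. The call lay close to the threshold: it was kept without 1 of the 6 libraries compared and lost without each of the other 5, with adjusted p from 0.0346 to 0.192. Of 8 other settings it was kept in 4. With SB the same gene had 12.4, 12.8 and 15.9 TPM at 8 h and 20.2, 10.9 and 12.002 at 2 h, with a log2 change of -0.02 (adjusted p 0.997). For rank 3 the log2 change was -1.76 with a standard error of 0.34 and an adjusted p of 0.0076, kept without 5 of the 6 libraries and lost without the third TGF-β replicate at 2 h (0.0645) and in a fit of the compared groups alone (0.0633). Its 8 h value rests on 0.154, 0 and 0 TPM, so the size of its fitted change depends on the pseudocount.

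The leading members did not pass. NONHSAG058179.1 had a log2 change from 2 h to 8 h of -0.78 in the TGF-β arm (standard error 0.55, adjusted p 0.614 by limma) and of -0.57 in the SB arm (adjusted p 0.834). NONHSAG099694.1 had 0.31 in the TGF-β arm (standard error 0.57, adjusted p 0.886) and -0.15 in the SB arm (adjusted p 0.974). The mean of the second gene in the TGF-β arm of M2 was 16.5 TPM at 0 h, 7.84 at 2 h, 9.88 at 8 h and 1.435 at 24 h. Its estimate between 2 h and 8 h is too uncertain to exclude a decline there, and its other steps were not tested.

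In the TGF-β arm of M1, 0 members were called lower at 8 h than at 2 h, where 1.96% of all genes were, and 2 were called higher, where 4.11% were. At an unadjusted p under 0.05 these were 2 and 9 members, where 6.67% and 12.6% of all genes were. Both members that rose are named here after their values were seen. NONHSAG094413.1 had 27.7, 31.1 and 27.8 TPM at 8 h, against 19.1, 19.3 and 22.4 at 2 h, a log2 change of 0.50 with a standard error of 0.14 and an adjusted p of 0.0356. That call was lost without 5 of the 6 libraries and under both rescalings. NONHSAG111209.1, of rank 82, had 6.02, 5.04 and 4.91 TPM at 8 h, against 2.31, 2.42 and 1.86 at 2 h, a log2 change of 1.11 with a standard error of 0.24 and an adjusted p of 0.00658, kept in each of the 6 fits that left out a library. Under SB in M1, 0 members were called in either direction, where 0.967% of all genes were lower and 0.656% higher, and 4 members each way had an unadjusted p under 0.05, where 5.82% and 6.03% of all genes did. Rescaled by median-of-ratios, the TGF-β arm of M1 had 2 members lower and 2 higher, where 3.4% and 3.35% of all genes were, and the SB arm 1 and 1, where 1.41% and 0.828% were. With library medians set equal it was 1 and 2 after TGF-β, where 3.38% and 3.32% of all genes were, and 0 and 1 after SB, where 1.41% and 0.77% were. A count of 1 or 2 among 87 members is close to these shares.

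In MDA-MB-231 limma called 0 members at 8 h against 2 h in the TGF-β arm, where 0.139% of all genes were lower and 0.0544% higher, with 3 members lower and 0 higher at an unadjusted p under 0.05, where 4.51% and 2.98% of all genes were. The members' median change was -0.02, as for all genes. Under SB 0 were called, where 0.0242% of all genes were lower and 0.00604% higher, with 10 members lower and 1 higher at an unadjusted p under 0.05, where 7.75% and 1.49% of all genes were. There the members' median was -0.30, against -0.14 for all genes, and 60 of 87 lay below the median of all genes. Without the third SB replicate at 8 h these medians were -0.51 and -0.27. A shift below the typical gene between 2 h and 8 h was thus also seen under SB in a line in which the members were flat at 24 h.

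**Figure D5:**
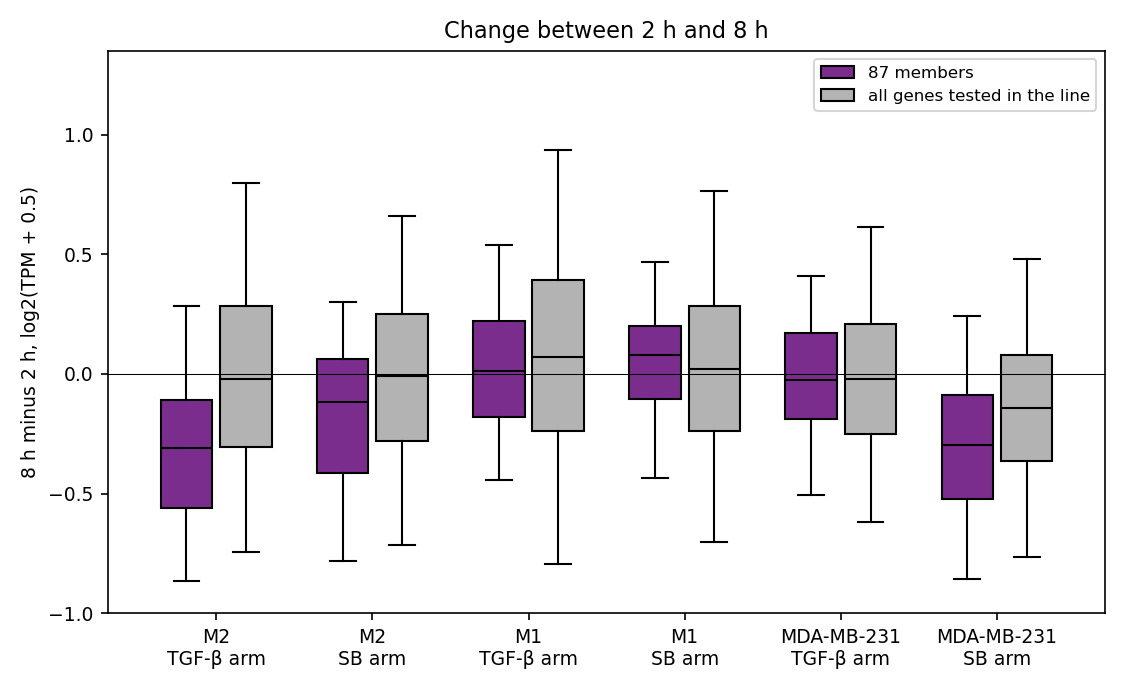
The log2(TPM + 0.5) change from 2 h to 8 h of the 87 members (purple) and of all genes tested in the line (grey), for each line and arm; boxes span the quartiles with the median as a line, and whiskers run from the 5th to the 95th percentile. The members' median lies at -0.31 in the TGF-β arm of M2 and at -0.30 in the SB arm of MDA-MB-231, each below that of all genes, and at 0.01 and 0.08 in the arms of M1.

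Whether the change from 2 h to 8 h differed between the lines was tested as an interaction in fits of 48 libraries. Against M1, limma called 3 members with a lower change in M2 in the TGF-β arm, where 0.645% of all 21857 genes were called, and 0 with a higher one, where 0.32% were. At an unadjusted p under 0.05 these were 16 and 0 members, where 7.56% and 3.87% of all genes were. The members' median difference was -0.35, against -0.08 for all genes, and without the first TGF-β replicate of M2 at 8 h it was -0.17, against 0.015. Under SB 0 members were called, where 0.0824% of all genes were lower and 0.403% higher, with 11 lower and 3 higher at an unadjusted p under 0.05, where 4.84% and 5.87% of all genes were. The rescalings left 3 members lower and 0 higher in the TGF-β arm, where 0.723% and 0.961% of all genes were lower and 0.732% and 0.654% higher. Under SB they gave 3 and 2 members lower, where 0.586% and 0.384% of all genes were, and 0 and 2 higher, where 1.88% and 3.91% were. The called members had ranks 13, 48 and 59, and each was lower in M2 and higher in M1 at 8 h than at 2 h.

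The member of rank 13 had 4.47, 6.14 and 5.31 TPM at 8 h and 11.0, 9.51 and 9.82 at 2 h of TGF-β in M2. In M1 it had 13.4, 15.03 and 14.7 TPM at 8 h and 11.5, 11.2 and 10.5 at 2 h. The groups did not overlap in either line, and the difference between the lines was -1.24 with a standard error of 0.26 and an adjusted p of 0.009. At rank 48 the gene had 57.7, 72.9 and 76.5 TPM at 8 h and 139.6, 103 and 97.0 at 2 h in M2, and 90.7, 103.5 and 91.4 at 8 h and 68.3, 88.7 and 75.1 at 2 h in M1. Its difference was -1.01 with a standard error of 0.24 and an adjusted p of 0.0256, and that of rank 59 was -1.49 with a standard error of 0.28 and an adjusted p of 0.00257. The calls of ranks 13 and 59 were kept without each of the 12 libraries compared, that of rank 48 without 7 of them. In a fit of the compared groups alone, the call of rank 48 was lost (adjusted p 0.105 by limma).

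Against MDA-MB-231 limma called 0 members in the TGF-β arm, where 0.0891% of all 20203 genes had a lower change in M2 and 0.307% a higher one. At an unadjusted p under 0.05, 13 members were lower and 1 higher, where 3.77% and 4.18% of all genes were. The members' median difference was -0.33, against 0.004 for all genes, and without the first TGF-β replicate of M2 at 8 h -0.14, against 0.11. The members of ranks 13, 48 and 59 had adjusted p of 0.578, 0.477 and 0.643 there. Under SB 0 were called, where 0.00495% of all genes were lower and 0.178% higher, with 1 member lower and 3 higher at an unadjusted p under 0.05, where 1.79% and 7.20% of all genes were, and a median of 0.11, against 0.09 for all genes. The rescalings gave 3 and 2 members lower and 0 higher after TGF-β, where 0.351% and 0.277% of all genes were lower and 0.896% and 0.648% higher. After SB they gave 2 and 0 members lower, where 0.203% and 0.099% of all genes were, and 0 and 1 higher, where 1.17% and 2.67% were. With TPM as deposited, a different course of single members was thus called against M1 and not against MDA-MB-231; whether the difference from M2 itself differs between those lines was not tested.

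The arms of M2 were compared at matched times in libraries the thresholds did not use. At 8 h, 2 members were called lower with TGF-β than with SB, where 0.885% of all genes were, and 2 were called higher, where 6.04% were; at an unadjusted p under 0.05 these were 3 and 14 members, where 3.24% and 18.4% of all genes were. The members' median difference of TGF-β minus SB was 0.15, against 0.23 for all genes. The lower ones were rank 3, with a log2 difference of -1.44 (adjusted p 0.0123), and rank 52. The call of rank 3 rests on 0.154, 0 and 0 TPM with TGF-β and was lost without 3 of the 6 libraries, namely SB replicate 2 and TGF-β replicates 2 and 3, with adjusted p up to 0.0722. The gene of rank 52 had 222, 257 and 281 TPM with TGF-β and 384, 371 and 377 with SB. The log2 difference of rank 52 was -0.58 with a standard error of 0.18 and an adjusted p of 0.0486, and the call was lost without any 1 of the 6 libraries (0.0803 to 0.148). After median-of-ratios scaling 10 members were lower and 4 higher, where 4.88% and 6.33% of all genes were, and with library medians set equal 17 and 3, where 10.2% and 4.02% were. The balance between lower and higher calls at 8 h therefore depended on the scaling.

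The higher ones at 8 h were ranks 65 and 75. That of rank 65 had 3.80, 6.23 and 5.14 TPM with TGF-β and 1.42, 2.23 and 2.77 with SB, a log2 difference of 1.08 with a standard error of 0.29 and an adjusted p of 0.026. That of rank 75 had 8.24, 15.9 and 15.8 TPM with TGF-β and 2.72, 4.72 and 5.76 with SB, a log2 difference of 1.49 with a standard error of 0.45 and an adjusted p of 0.0447. The groups did not overlap for either gene, yet the calls were lost without 4 and 5 of the 6 libraries in turn.

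At 2 h, 0 members were called lower with TGF-β than with SB, where 0.106% of all genes were, and 1 was called higher, where 4.03% were, with 0 and 17 at an unadjusted p under 0.05, where 1.31% and 18.1% of all genes were. The called member, of rank 28, had 16.6, 20.2 and 18.8 TPM with TGF-β and 11.8, 2.22 and 5.67 with SB, a log2 difference of 1.68 with a standard error of 0.42 and an adjusted p of 0.026. Without the first SB replicate at 2 h, 23 members were called higher, where 17.4% of all genes were; without any other library compared 0 were. Rescaled by median-of-ratios 0 were lower and 0 higher, where 0.519% and 1.85% of all genes were, and with library medians set equal 0 and 2, where 0.554% and 2.56% were. How many members differed between the arms at 2 h thus rested on that 1 library.

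Set side by side over the course, the members' median of TGF-β minus SB in M2 was -0.12 at 0 h, 0.36 at 2 h, 0.15 at 8 h and -0.32 at 24 h. For all genes it was -0.04, 0.27, 0.23 and -0.09. The values at 0 h and 24 h belong to the rule and carry no test.

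The members' levels before the late decline were compared between the lines at 2 h, as the mean of both arms. Against M1, limma called 56 of 87 members (64.4%) lower in M2, where 45.8% of all genes were, and 2 members (2.30%) higher, where 3.99% were; at an unadjusted p under 0.05 these were 60 and 2, where 51.1% and 4.73% of all genes were. The members' median difference was -0.58, against -0.49 for all genes. This direction depended on the scaling. After median-of-ratios scaling 20 members were lower and 18 higher, where 21.1% and 13.3% of all genes were, and with library medians set equal 15 were lower and 28 higher, where 9.81% and 26.5% were. NONHSAG099694.1 averaged 6.24 TPM in M2 and 11.6 in M1, a log2 difference of -0.99 with an adjusted p of 0.0212. NONHSAG058179.1 averaged 9.42 TPM in M2 and 6.12 in M1, a log2 difference of 0.55 that did not pass (adjusted p 0.144).

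Against MDA-MB-231, 15 members were lower and 32 higher in M2 at 2 h, where 20.6% and 26.4% of all genes were, and 19 and 31 under either rescaling, where 25.3% and 24.4% or 25.6% and 24.3% were; at an unadjusted p under 0.05 these were 17 and 36, where 23.2% and 29.8% of all genes were. The members' median difference was 0.30, against 0.09 for all genes. NONHSAG099694.1 averaged 6.24 TPM in M2 and 0.428 in MDA-MB-231, a log2 difference of 2.97 with a standard error of 0.43 and an adjusted p of 2.2e-07. The member of rank 10, one of ranks 3 to 10, averaged 7.99 TPM in M2 and 0.453 in MDA-MB-231, a log2 difference of 3.14 with an adjusted p of 5.88e-19. NONHSAG058179.1 averaged 9.42 and 7.39 TPM (adjusted p 0.514). The mean over all 24 libraries of a line was under 1 TPM for 2 members in M2, for 0 in M1 and for 9 in MDA-MB-231, so that flatness in MDA-MB-231 was measured close to the floor for these 9.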

How the data were processed

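Total RNA was isolated with TRIzol and sequenced on the Illumina platform, per the labels' protocols. What the authors deposited was the TPM of 96411 lncRNA genes in 72 columns, scaled so that these genes make up each library. StringTie 1.3.6, HISAT2 2.2.0, cutadapt 2.10 and FastQC were used with GRCh38, per the submitters' processing notes. The annotation release, strandedness and read filtering were not given in the sources used here. Reads of overlapping or near-identical genes cannot be told apart, and read depth is unknown, so no counting error could be given.

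Groups came from the labels; the series text counts 36 samples, of 72 found. If the replicates are not separate cultures, the p-values speak only for the spread of these samples. A gene entered a fit with 0.5 TPM or more in 3 or more of its libraries. Tests used log2(TPM + 0.5) and limma 3.58.1 (lmFit, contrasts.fit, eBayes with trend) in R 4.3.3, with version 1.17.8 of data.table: 14 two-sided contrasts, with Benjamini-Hochberg adjustment over all genes of a fit and calls at an adjusted p under 0.05. Fits held the 24 libraries of a line or the 48 of a pair of lines. The 24 h minus 0 h values chose the members and were not tested. The scripts were tested on simulated data.

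The members, lists and tests were chosen with earlier results of these data known. By the naming rule, ranks 1 and 2 are printed by identifier, as would be members called higher at 8 h than at 2 h in M2, of which there were none; ranks 3 to 10, the most abundant member, the last 5 members and the 5 genes just outside go without one. The rule foresaw 100 members, and with 87 the last are ranks 83 to 87. Called members outside it were added after their values were seen. Lists of TGF-β related lncRNAs and of cell type markers could not be matched to identifiers. Settings tried besides were pseudocounts of 1 and 0.1, all genes unfiltered, a minimum mean of 1 TPM, median-of-ratios scaling, library medians set equal, a replicate block, fits of the compared groups alone, and each library left out in turn.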

Additional observations from a re-analysis of the deposited data

Results flagged for a closer look

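Between M2 and M1 the change from 2 h to 8 h of TGF-β differed in 3 members by the interaction test in limma. The difference of M2 minus M1 was -1.24 for the member of rank 13, which had a log2 change of -0.88 in M2 (adjusted p 0.0724) and of 0.36 in M1 (adjusted p 0.156). It was -1.01 (-1.006) for the member of rank 48, with -0.70 in M2 (adjusted p 0.1) and 0.30 in M1 (adjusted p 0.168), and its call was lost in a fit of the compared groups alone (adjusted p 0.105). It was -1.49 for the member of rank 59, with -0.99 in M2 (adjusted p 0.0449) and 0.50 in M1 (adjusted p 0.0356). In the SB arm the same differences were 0.14, 0.02 and -0.13, with adjusted p of 0.912, 0.993 and 0.93.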

How the results depend on the processing

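Of the 87 members, 35 met the rule with a pseudocount of 0.1, 35 after median-of-ratios scaling and 30 with a minimum mean of 1 TPM, and 68 to 83 with single libraries left out. Members called lower at 8 h than at 2 h of TGF-β in M2 (2) numbered 1 with a pseudocount of 0.1, 1 with no filter, 4 with a minimum mean of 1 TPM, 9 after median-of-ratios scaling, 12 with library medians set equal, 1 with the replicate block, 0 with the compared groups alone and 1 to 2 without single libraries. At 8 h, members lower with TGF-β than with SB (2) numbered 1 with a pseudocount of 0.1, 1 with no filter, 10 and 17 under the rescalings, 1 with the replicate block and 0 to 1 without single libraries. Those higher (2) numbered 4 and 1 with pseudocounts of 1 and 0.1, 1 with no filter, 4 with a minimum mean of 1 TPM, 4 after median-of-ratios scaling and 0 to 6 without single libraries, with 6 without the first TGF-β replicate. At 2 h, those higher (1) numbered 0 with no filter, 2 with a minimum mean of 1 TPM, 0 and 2 under the rescalings, 2 with the replicate block, 0 with the compared groups alone and 0 to 23 without single libraries. In M1, 8 h against 2 h, the rescalings gave 2 and 1 lower after TGF-β, 1 lower and 1 higher after SB with median-of-ratios, and 1 higher after SB with library medians set equal; the compared groups alone gave 1 higher after TGF-β, and single libraries 1 to 3 there and 0 to 1 lower and 0 to 1 higher after SB. At 2 h, M2 against M1 gave 20 lower and 18 higher after median-of-ratios scaling, 15 and 28 with library medians set equal, and 45 to 62 and 2 to 3 without single libraries; M2 against MDA-MB-231 gave 13 to 18 lower and 28 to 34 higher without single libraries. The rescalings gave interactions of 3 and 2 members lower and 0 and 2 higher against M1 under SB, 3 and 2 lower against MDA-MB-231 under TGF-β, and 2 lower (median-of-ratios) or 1 higher (library medians set equal) under SB, with 0 to 1 higher without single libraries; against M1 under TGF-β 2 to 3 were lower without single libraries. The cause of these shifts was not tested.

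The change from 2 h to 8 h of the first member ranged from -0.98 to -0.58 after TGF-β and from -1.24 to 0.34 after SB without single libraries, with 0.34 without the second SB replicate at 8 h. That of the second ranged from -0.01 to 0.60 after TGF-β, with -0.01 (-0.012) without the first TGF-β replicate at 2 h, and from -0.69 to 0.42 after SB, with 0.42 without the first SB replicate at 2 h and 0.20 without the first at 8 h. Libraries of equal replicate number showed only weak correlations of their deviations from the group means. These ran from -0.144 to 0.139 in M2 (median -0.013), from -0.056 to 0.046 in M1 (0.001) and from -0.112 to 0.141 in MDA-MB-231 (-0.009). Of 84 such pairs per line, 6 lay above 0.1 in M2, 0 in M1 and 7 in MDA-MB-231. Whether equal numbers share handling cannot be read from these values, and only the replicate block treated them as paired. TPM without read depth sets the limit at low levels.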

Other observations

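The same thresholds with the sign turned round, for genes higher at 24 h in both arms of M2 and flat in the other lines, were met by 56 of the 13631 genes, against 87 for the members. The suffix of the identifier was 1 for 42 members (48.3%), 2 for 36 (41.4%) and 3 for 9 (10.3%), against 44.4%, 44.5% and 11.0% of all genes tested in all 3 lines. No members had neighbouring identifier numbers, and 4 had another member within 10 numbers. What these numbers mean for position is not given in the sources used here.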
